A study of Rattus norvegicus with 16 samples.

Results

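The regions described here are ac4C peaks of the rat spinal dorsal horn in genes that a separate RNA immunoprecipitation (RIP) did not list. ac4C is N4-acetylcytidine, a cytidine that carries an acetyl group on its base. It is written by the acetyltransferase NAT10, is long known from 18S ribosomal RNA and from transfer RNAs, and has also been described in messenger RNA. An ac4C peak is a stretch of transcript whose fragments were over-represented after pull-down with an antibody to ac4C, relative to the input RNA of the same sample. A region was taken if its Ensembl gene identifier had no row in the table of RIP targets. This gave 1126 of 8017 peaks (14.0%) in 889 of 4792 genes (18.6%), called RIP-absent peaks and genes below. The other 6891 peaks lay in 3903 genes with a row, called RIP-table peaks and genes.

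The peaks came from 5 lists of wild-type rats: 3 from normal rats (controls 1, 2 and 3) and 2 from rats with cancer-induced bone pain (bone cancer pain 2 and 3), each from 1 immunoprecipitated (IP) and 1 input library of dorsal horn total RNA. The labels call the pairs biological replicates. The sources used here give no strain, age, method of producing the bone cancer or number of rats behind a pair, so the p-values measure only the spread between these samples. The peak files of the diseased rats are named CFA although their labels read CIBP, and the groups follow the labels. The lists held 1173 to 2416 peaks. Bone cancer pain list 1 held 50417 peaks, 49103 of them at a single fold value of 10.6, and was not among the 5; it is used below only where it is named. The RIP had 2 IP and 2 input libraries from bone cancer pain rats, and the sources used here do not name its antibody target. Read totals were not used here, so the depth behind a peak is unknown.

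The members were thus chosen by values of the RIP, which enter no test below; the peak measures come from other libraries. Absence from the table has more than a single route. Every listed gene had a log2 fold of IP over input above 1 (lowest 1.01), a p-value of at most 0.0488 and an input signal of at least 1.00 in both input libraries, so a gene may be absent for a low fold, a weak p-value or a low input signal, and these cannot be told apart. Among genes with a peak, those nearest the fold limit in the authors' deposited table were Sema3c (log2 fold 1.02), Ugcg (1.04) and Tm2d1 (1.04). A RIP-absent gene has no value there. The RIP-absent genes also have no symbol, since the gene table used here does not pair Ensembl identifiers with names, so they are given by position on the rn6 build. Of the cell type markers looked up, the RIP table listed 3 of 5 neuronal, 4 of 6 dorsal horn neuron and 5 of 5 oligodendrocyte markers. It also listed 5 of 5 astrocyte, 4 of 5 microglial, 2 of 3 endothelial and 1 of 5 muscle and blood markers. Markers of sensory ganglion and Schwann cells were also listed (3 of 4). A marker without a row may still be expressed, so these counts do not test the make-up of the tissue.

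RIP-absent peaks spanned splice junctions less often than RIP-table peaks. A peak that crosses a junction is stored as 2 or more exon blocks separated by introns. The share of RIP-absent peaks with 2 or more blocks was 35.3%, 37.9% and 40.1% in controls 1, 2 and 3, with 43.4% and 35.9% for bone cancer pain 2 and 3. The share among RIP-table peaks was 57.0%, 54.5%, 57.0%, 55.0% and 53.8% in the same order. The 5 values of each class did not overlap. The difference within a list averaged -17.0 ± 3.64 percentage points (SD, n = 5 lists) and was negative in 5 of 5 lists. A two-sided exact permutation test over the lists gave p = 0.0625, the smallest that 5 lists allow (adjusted p = 0.0703 over 9 such measures by Benjamini-Hochberg). With bone cancer pain list 1 added at a false discovery rate (FDR) of at most 0.05, the difference was negative in 6 of 6 lists at -15.6 points. The exact permutation p was 0.03125 (unadjusted), the smallest that 6 lists allow. Counting only peaks with 3 or more blocks, it was -8.04 points and negative in 5 of 5 lists.

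In counts, 689 of the 1126 RIP-absent peaks had 1 block (61.2%), 296 had 2, 119 had 3, 17 had 4 and 5 had 5. Of the RIP-table peaks, 44.6% had 1 block and 17.8% had 3. Where a RIP-absent peak did span a junction, its longest gap was similar in size to that of the other class, with a median of 1651 bp against 1726 bp. Only 8 of the 437 RIP-absent peaks with several blocks (1.83%) had a longest gap under 50 bp, too short for most introns. The share was lower among RIP-table peaks, at 9 of 3816 (0.236%).

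The width of the peaks hardly differed. Exonic width, the sum of a peak's blocks, had a median of 179 bp in RIP-absent and 180 bp in RIP-table peaks and ranged from 105 to 420 bp in the former. The mean of log2 width was lower for RIP-absent peaks in 5 of 5 lists by 0.03 (0.982 times; SD of the difference 0.01; exact permutation p = 0.0625, adjusted p = 0.0703). Narrow peaks of under 150 bp made up 13.8% of RIP-absent and 8.30% of RIP-table peaks. At an FDR of at most 0.05 the width difference was negative in 3 of 5 lists. Measured from start to end along the genome, introns included, RIP-absent peaks were shorter by 0.70 on the log2 scale in 5 of 5 lists. The classes thus differed far more in blocks than in exonic length.

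**Figure D1:**
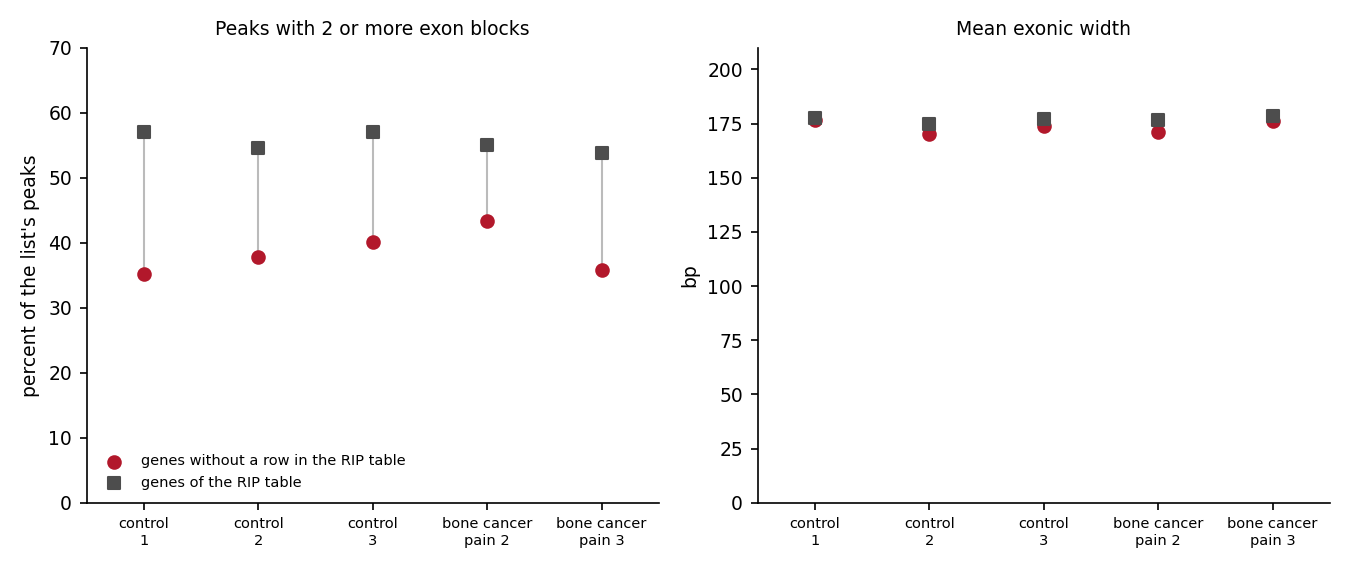
Left, percent of each list's peaks with 2 or more exon blocks; right, mean exonic width in bp; circles are peaks in genes without a row in the RIP table, squares peaks in genes with a row, and a grey line joins the 2 classes of 1 list. Circles lie at 35.3% to 43.4% and squares at 53.8% to 57.0% on the left, while both classes lie close together on the right.

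Whether the same gene or the same place was found again gave opposite orders of the classes. A gene counted as found again if any of the other 4 lists had a peak in it. Of the RIP-absent genes, 35.0%, 28.3% and 35.4% were found again for controls 1, 2 and 3, and 28.7% and 38.0% for bone cancer pain 2 and 3. The RIP-table genes stood at 64.3%, 55.6%, 60.9%, 54.9% and 62.9%. RIP-absent genes were lower in 5 of 5 lists, by 26.7 ± 1.75 percentage points (SD, n = 5; exact permutation p = 0.0625, adjusted p = 0.0703). A shared gene counts in each list that holds it, so the 5 values are not independent and the p is only a rough guide. The same limit holds for the shared places and overlapping peaks below. Over all lists, 742 of 889 RIP-absent genes (83.5%) had a peak in a single list, against 62.8% of RIP-table genes.

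When a gene was found again, the peak lay at the same place more often for RIP-absent than for RIP-table genes. A place was the same if the exon blocks of both peaks, on 1 strand, had at least 1 bp in common. Of the RIP-absent genes found again, 69.0%, 49.2% and 52.6% had an overlapping peak for controls 1, 2 and 3, and 59.5% and 82.1% for bone cancer pain 2 and 3. The values for RIP-table genes were 25.3%, 26.2%, 29.5%, 28.9% and 33.6%, all below the lowest RIP-absent value. The difference averaged 33.8 ± 11.8 points (SD, n = 5; exact permutation p = 0.0625, adjusted p = 0.0703). This measure was added after the data were seen. Peaks in a very short transcript must overlap. Transcript lengths were not known here, so their part in this difference was not tested. Pooled over the lists, 87 of 147 RIP-absent genes with peaks in 2 or more lists (59.2%) and 463 of 1453 such RIP-table genes (31.9%) had a shared place.

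Counted over peaks, RIP-absent peaks overlapped a peak of another list slightly more often. Their share was 23.7%, 13.7% and 18.0% in controls 1, 2 and 3, with 16.6% and 30.9% for bone cancer pain 2 and 3, against 14.9%, 12.6%, 16.4%, 13.2% and 19.2% for RIP-table peaks. The difference of 5.31 ± 4.74 points (SD, n = 5) was positive in 5 of 5 lists (exact permutation p = 0.0625, adjusted p = 0.0703). At an FDR of at most 0.05 it was 1.91 points and positive in 3 of 5 lists. Bone cancer pain 3 and control 1 had the largest differences, and without bone cancer pain 3 the value was 1.82 points, positive in 3 of 4 lists. Without control 2 it was 8.37 points and without bone cancer pain 2 it was 8.15 points.

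The number of blocks divided the RIP-absent peaks in this respect. Of those with 1 block, 198 of 689 overlapped a peak of another list (28.7%), against 436 of 3075 RIP-table peaks with 1 block (14.2%). Of those with 2 or more blocks, 31 of 437 did (7.09%), against 578 of 3816 (15.1%). Within lists the difference was 13.8 points for peaks with 1 block and -8.21 points for peaks with more, each with its sign in 5 of 5 lists (exact permutation p = 0.0625 for both; a division chosen after seeing the data). Recurring RIP-absent peaks were thus mainly unspliced, while RIP-table peaks recurred at about the same rate with and without a junction.

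**Figure D2:**
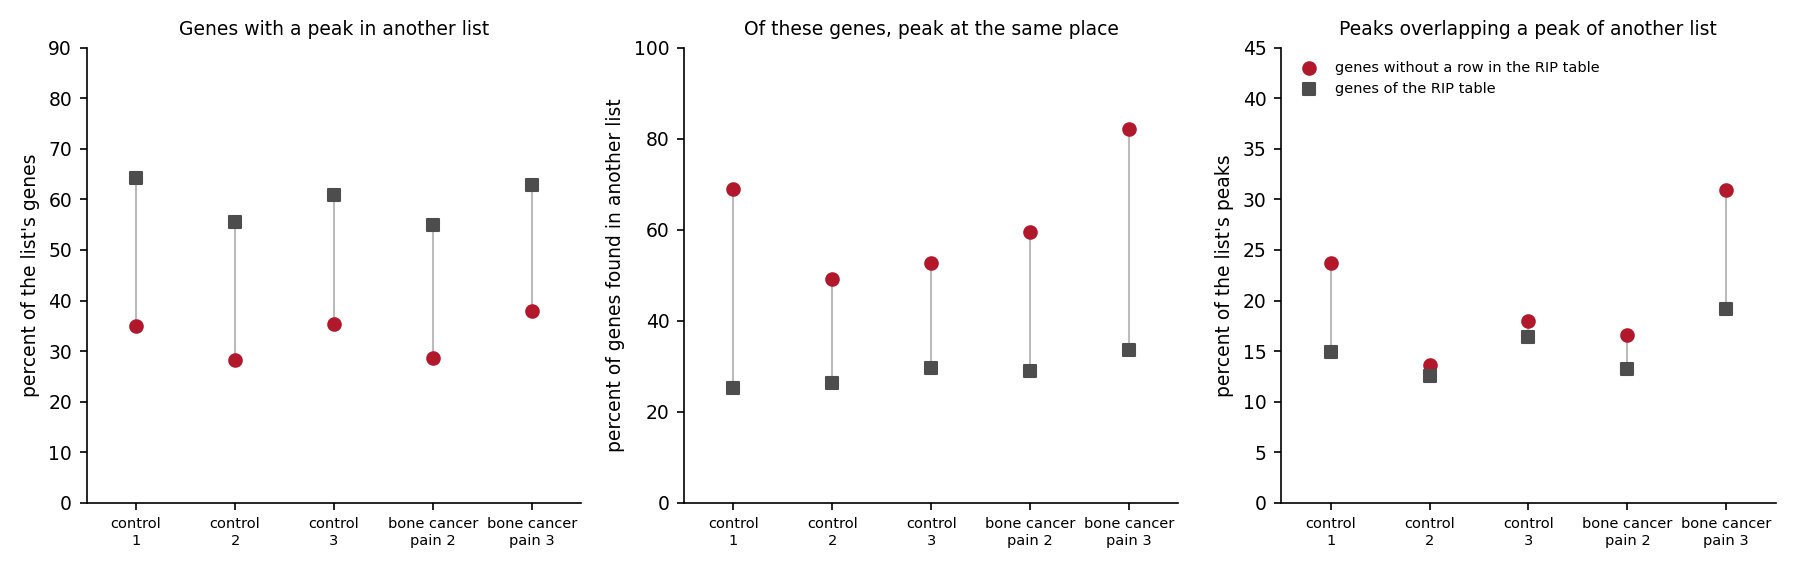
Percent per list of genes with a peak in another list (left), of those genes with an overlapping peak there (middle) and of peaks that overlap a peak of another list (right); circles are the RIP-absent class and squares the RIP-table class. Circles lie below squares on the left (28.3% to 38.0%) and above them in the middle (49.2% to 82.1%) and on the right.

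Joined by overlap, the RIP-absent peaks formed 976 regions. Of these, 888 occurred in 1 list, 57 in 2, 16 in 3, 8 in 4 and 7 in 5. The 6357 RIP-table regions included 444 in 2 lists, 32 in 3, 2 in 4 and 4 in 5. Although RIP-absent regions were far fewer, more of them occurred in 4 and in 5 lists. Of the 31 RIP-absent regions in 3 or more lists, 30 had 1 block in every list and 21 had the same start or the same end in every list. The corresponding counts among 38 RIP-table regions were 16 and 9.

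**Figure D3:**
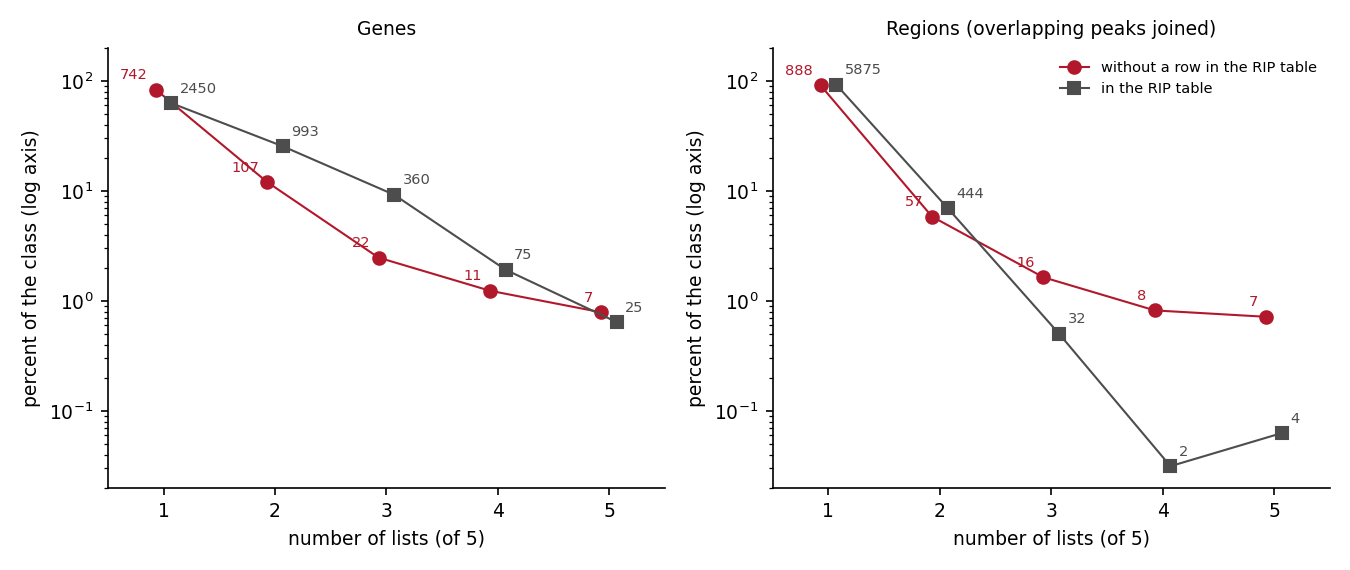
Percent of genes (left) and of regions (right) by the number of lists they occur in, on a log axis, for the RIP-absent (circles) and RIP-table class (squares); the number beside each point is the count. The circles lie below the squares for genes in 2 to 4 lists and above them for regions in 3 to 5 lists.

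The strongest region found in all 5 lists lay on the minus strand of chromosome 12 from 1510400 to 1510517. It had the same 118 bp in every list. Controls 1, 2 and 3 had folds of IP over input of 7.10, 104 and 64.5, and bone cancer pain 2 and 3 had 27.6 and 19.1, so the bone cancer pain values lay inside the control range. How folds scale between lists is unknown, so such values are only set side by side. Bone cancer pain list 1 had 1 peak in that gene, also of 118 bp, with a fold of 186.

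The next region, at 52557222 to 52557641 of chromosome 6 (plus strand), was the widest and the most enriched. Controls 1, 2 and 3 had folds of 14.4, 219 and 16.7, and bone cancer pain 2 and 3 had 664 and 4350. Both bone cancer pain values exceeded all control values, and the values varied several-fold within each group. The peak covered 151, 240 and 181 bp in the controls and 420 and 391 bp in bone cancer pain, as 1 block each time. Bone cancer pain list 1 had 6 peaks in the gene, covering 2642 bp, and the highest of their folds was 267. This region was picked out among many after its values were seen, and no test of its group difference was made.

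The other 5 regions found in every list were short and moderately enriched. On chromosome 1 they lay at 190338092 to 190338326 (folds 2.90 to 5.72), 173139486 to 173139692 (3.26 to 9.02) and 246973140 to 246973340 (1.19 to 9.99), all on the plus strand. The remaining pair lay on the minus strand, on chromosome 3 from 44774082 to 44774288 (2.43 to 8.15) and on chromosome 10 from 96050513 to 96050704 (4.89 to 15.7). On chromosome 10 both bone cancer pain folds (15.7 and 13.3) again exceeded the control folds (5.34, 4.89 and 7.44), but the 15.7 did not pass an FDR of 0.05. The first region on chromosome 1 started at the same base in all 5 lists while its end varied over 4 positions, and the one on chromosome 3 ended at the same base with 3 different starts. Of the 7 regions, 5 had an FDR of at most 0.05 in every list; the region from 246973140 passed in 3 lists and the one on chromosome 10 in 2. The 3 regions that followed, each in 4 lists, were chromosome 12 from 24796302 to 24796570, chromosome 1 from 246926595 to 246926828 and chromosome 6 from 95871751 to 95871980, with folds of 1.29 to 6.02, and control 3 lacked a peak at each.

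Outside these regions, a gene on chromosome 9 had 5 peaks in 4 lists between 73429612 and 73462792, as many as any RIP-absent gene, and a mitochondrial gene had 5 in 3 lists. The highest folds after the region on chromosome 6 were all in bone cancer pain 3, with 2310 on chromosome 11 (9416332 to 9416566), 2240 on chromosome 16 (46700794 to 46700898) and 1520 on chromosome 1 (189619596 to 189621616). The highest fold of control 1 was 1110, at 84335357 to 84335537 on chromosome 1 (1 block of 181 bp), and that of control 3 was 419, across 4 blocks between 263511714 and 263517394 on the same chromosome. The peaks with the most blocks had 5, among them one of 179 bp on chromosome X from 70450419 to 70452007 in control 1 (fold 34.7) and one of 360 bp on chromosome 16 from 78835807 to 78847616 in bone cancer pain 3 (fold 1040). High folds were thus found in peaks of 1 block and of several. Within each of the 5 lists, RIP-absent peaks that overlapped another list had a lower median fold than those that did not: 5.72 against 28.1, 4.35 against 13 and 8.16 against 16.7 for controls 1, 2 and 3, and 7.28 against 10.5 and 8.83 against 26.5 for bone cancer pain 2 and 3. This division was made after the data were seen and was not tested.

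**Figure D4:**
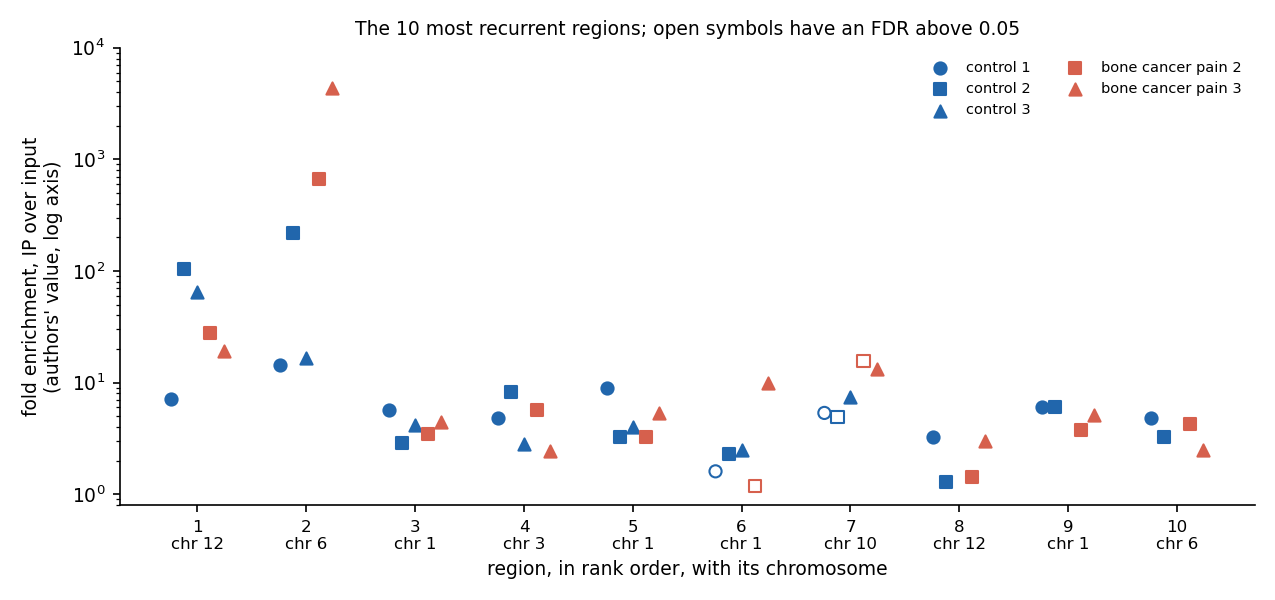
Fold enrichment of IP over input in each list (log axis) for the 10 RIP-absent regions found in the most lists, in rank order with their chromosome; blue symbols are controls, red symbols bone cancer pain, and open symbols have an FDR above 0.05. The regions ranked second and seventh have both bone cancer pain values above all control values.

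Bone cancer pain list 1 held peaks in many more genes than the other lists, which gave a covered length per gene. Of its 30619 RIP-absent peaks, 30433 held its single fold of 10.6 and 116 had an FDR of at most 0.05. The coverage thus came mostly from calls at that fold. That list had peaks in 829 of the 889 RIP-absent genes, which covered a median of 1903 exonic bp per gene (interquartile range 957 to 3056). It had peaks in 3103 of the 3903 RIP-table genes, with a lower median of 660 bp. The covered length is what was called in that list and not the length of the gene. Among the 40 RIP-absent genes found in 3 or more of the 5 lists, 30 had such peaks, with a median of 241 bp, and 20 of the 30 were covered as a single block of at most 500 bp. Among the RIP-absent genes found in 1 list, 39 of 704 were of that kind (5.54%). For RIP-table genes the share was 22.7% in genes of 3 or more lists and 21.7% in genes of 1 list. Over all genes with peaks in bone cancer pain list 1, the share was 8.44% for RIP-absent and 22.5% for RIP-table genes. Such short single blocks were thus less common in the RIP-absent class as a whole.

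RIP-absent peaks in genes covered there as single blocks had 2 or more blocks in 12.5% of 263 cases and recurred in 44.5%. Those in genes covered there with several blocks had 2 or more blocks in 50.9% of 766 cases and recurred in 8.22%. The 97 peaks in 60 genes with no peak in that list, and so no covered length, had 2 or more blocks in 14.4% and recurred in 50.5%. Without the genes covered as a single block of at most 500 bp, 982 RIP-absent peaks were left, of which 43.2% had 2 or more blocks and 13.8% recurred. RIP-table peaks were not divided in this way, so these values do not compare the classes. Whether the genes covered as short single blocks have near-identical copies elsewhere, among which reads could be split, was not tested. No sequence of the rn6 build was used here.

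A lower share of RIP-absent peaks passed the FDR limit in every list, while their folds were not lower. The share with an FDR of at most 0.05 was 60.9%, 56.8% and 64.1% in controls 1, 2 and 3, with 38.4% and 68.6% for bone cancer pain 2 and 3, against 78.9%, 60.0%, 71.6%, 53.2% and 78.5% for RIP-table peaks. The difference was -10.7 ± 5.87 points (SD, n = 5; lower in 5 of 5 lists; exact permutation p = 0.0625, adjusted p = 0.0703). With each list cut to the length of the shortest by p-value it was -5.64 points, lower in 3 lists and higher in 1. The median log2 fold within a list was higher for RIP-absent peaks in 3 lists and equal in the other two, by 0.21 ± 0.25 (SD, n = 5; exact permutation p = 0.25). Restricted to an FDR of at most 0.05, it was higher in 5 of 5 lists, by 0.76 ± 0.66 on the log2 scale (SD, n = 5). The means were 5.01 against 4.25 (exact permutation p = 0.0625). The difference ranged from 0.32 to 1.91 between lists and was largest in control 1 (5.66 against 3.74).

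Many of the weak peaks carried the same value. In each list a single pair of fold and p-value was the most common, such as a fold of 10.5 in bone cancer pain 2 (FDR 0.127) or 13 in control 2 (FDR 0.0794), and none of these 5 values passed an FDR of 0.05. This value was held by 13.5%, 31.3% and 28.7% of RIP-absent peaks in controls 1, 2 and 3, with 39.1% and 19.7% for bone cancer pain 2 and 3. RIP-table peaks held it in 3.00%, 15.6%, 18.1%, 22.7% and 8.0%. The share was higher for RIP-absent peaks in 5 of 5 lists, by 13.0 ± 2.82 points (SD, n = 5; exact permutation p = 0.0625, adjusted p = 0.0703; added after seeing the data). RIP-absent genes also had fewer peaks each within a list, 1.02 against 1.15 on average (lower in 5 of 5 lists, exact permutation p = 0.0625).

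By chromosome, RIP-absent peaks made up 8.56% (chromosome 17) to 18.1% (chromosome 19) of the peaks on the 20 autosomes and X. They made up all 7 peaks on 5 unplaced scaffolds and 12 of 15 peaks on the mitochondrial chromosome. The other 3 mitochondrial peaks lay in the 2 mitochondrial ribosomal RNA genes, which the RIP table lists. The 12 RIP-absent ones fell in 4 mitochondrial genes. Over all chromosomes, 27 of the 1126 RIP-absent peaks (2.40%) shared exonic bases with a RIP-table peak on either strand.

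Of the 12 mitochondrial peaks, 7 combined the smallest p-values of all RIP-absent peaks with low folds. In control 1 the peak from 7273 to 7570 had a fold of 3.08 and a -log10 of the p-value of 8400, and that from 8628 to 8976 had 3.41 and 4960. The latter place was also called in bone cancer pain 2 (8599 to 8947, fold 2.45) and bone cancer pain 3 (8686 to 8889, fold 1.66). The peak at 5650 to 5887 had a fold of 7.09 in control 1 and one inside it a fold of 2.31 in bone cancer pain 3. All 7 RIP-absent peaks with a -log10 of the p-value above 1000 were mitochondrial, and 4 RIP-table peaks exceeded that value. Control 3 had no mitochondrial RIP-absent peak, and control 2 had only 2, between 10759 and 11208, with folds of 2.61 and 2.17. These belonged to the 5 peaks between 10459 and 11417, whose -log10 of the p-value was only 1.78 to 3.16; 3 of the 5 had an FDR above 0.05, among them the one in control 1 with a fold of 8.01.

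**Figure D5:**
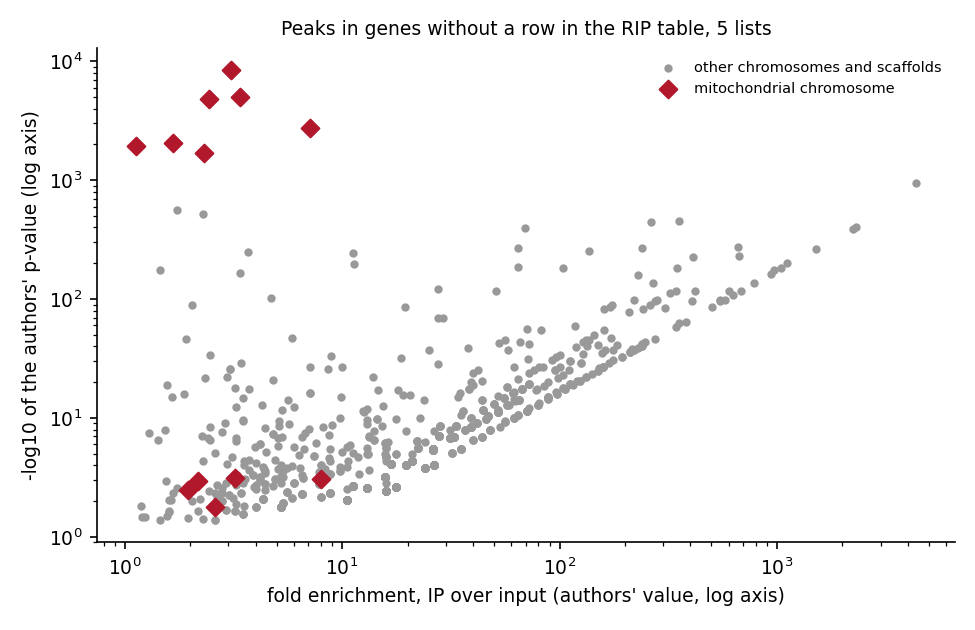
Fold enrichment against -log10 of the authors' p-value for the 1126 RIP-absent peaks, both on log axes; diamonds are the 12 mitochondrial peaks. The 7 diamonds above 1000 on the vertical axis have folds of 1.13 to 7.09.

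The next comparison was of bone cancer pain with controls. RIP-absent peaks made up 17.1%, 12.6% and 11.8% of the peaks in controls 1, 2 and 3, with 12.5% and 19.0% for bone cancer pain 2 and 3. The groups overlapped: the highest and the next highest share belonged to different groups, and these were the shortest lists. The means were 13.8 ± 2.89% (SD, n = 3) and 15.8 ± 4.60% (SD, n = 2), with an exact permutation p of 0.6. With 3 lists against 2, a two-sided exact permutation test cannot go below 0.2.

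The other measures did not separate the groups beyond their spread either. The share of RIP-absent peaks with 2 or more blocks averaged 37.8 ± 2.43% in controls (SD, n = 3) and 39.6 ± 5.31% with bone cancer pain (SD, n = 2), giving an exact permutation p of 0.6. The share that overlapped another list averaged 18.4 ± 5.02% and 23.7 ± 10.2% (SD, n = 3 and 2; exact permutation p = 0.6), and the share with an FDR of at most 0.05 was 60.6 ± 3.63% and 53.5 ± 21.4% (SD, n = 3 and 2; exact permutation p = 0.8). Adjusted over 7 measures, the p was 0.8 for all of them.

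Some RIP-absent regions recurred within 1 group only. Of 88 regions in 2 or more lists, 68 occurred in both groups, 6 in controls alone and 14 in bone cancer pain alone. Of 482 such RIP-table regions, these counts were 285, 119 and 78. A region in 4 or 5 lists must occur in both groups, so these counts are a description and carry no test. Control 1 and bone cancer pain 3 shared the most, 40 regions, or 19.4% and 18.0% of their RIP-absent regions. Bone cancer pain 2 and 3 shared 37 (12.4% and 16.7%), while pairs of controls shared 12 to 16. Among RIP-table regions, bone cancer pain 2 and 3 shared 97 (4.59% and 10.2%), the most of any pair. Pairs of controls shared 46 to 63 of these regions, and control 1 and bone cancer pain 3 shared 33.

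Gene by gene, 15 of 889 RIP-absent genes (1.69%) had a peak in both bone cancer pain lists and in no control list, against 2.44% of all 4792 genes with a peak. The opposite pattern, 3 control lists and no bone cancer pain list, was held by 0 RIP-absent genes and by 0.605% of all genes. With at least 2 of 3 control lists in place of 3, it was held by 18 RIP-absent genes (2.02%) and by 5.97% of all genes. Since RIP-absent genes occurred in 2 or more lists less often (16.5% against 37.2%), fewer of them could meet any of these rules. At an FDR of at most 0.05, 2 of 532 RIP-absent genes had the first pattern (0.376%), against 1.71% of all 3392 genes. The second was held by 0 RIP-absent genes and by 0.472% of all genes. With at least 2 of 3 control lists it was held by 11 RIP-absent genes (2.07%), against 5.78%.

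The first of the 15 by strength was ENSRNOG00000051986 on chromosome 19, with a peak across a junction from 50151845 to 50152874 in both lists. Its fold was 10.5 in bone cancer pain 2 and 671 in bone cancer pain 3. It was followed by ENSRNOG00000006978 on chromosome 7, at 24647897 to 24648076 with a fold of 10.5 and at 24647897 to 24648136 with a fold of 680. Both held the most common value of bone cancer pain 2, so that list gave them an FDR of 0.127. Of the 15 genes, 13 had overlapping peaks in the 2 lists, 1 had an FDR of at most 0.05 in both, and 1 had a peak at that limit in bone cancer pain list 1. The gene passing in both lay on chromosome X, where the peaks from 153064447 and from 153064088 did not overlap and had folds of 26.1 and 133.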

How the data were processed

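The authors deposited 1 peak list per IP and input pair, and the sources used here do not name the peak caller. The build rn6 and the tools HISAT2 2.1.0, featureCounts 1.6.3, HOMER 4.10.4, cutadapt 2.5 and DESeq2 stand in the submitters' processing notes, with no role assigned. Per the file headers, each peak has a deposited ratio, the fold of IP over input, and its p-value and FDR as log10. Classes were compared within lists; folds of different lists, whose scaling is unknown, were only set side by side. The deposited RIP table holds the authors' log2 fold, p-value and FDR per gene and normalised signal values of a unit that its header does not state. Gene membership came from its identifiers alone.

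Starts were converted to 1-based positions. Lists were the replicates: differences between classes were taken within a list and tested by flipping their signs in all 32 ways, and groups were compared over all 10 arrangements of 3 and 2 lists. Regions were ranked by number of lists, then by the median strongest -log10 of p, and the first 10 are described; genes in bone cancer pain lists alone were ranked likewise and the first 2 named; the genes with the most peaks and each list's extremes were also examined. The members, measures and lists were chosen with earlier results of these data known. Python 3.11.15, pandas 2.3.3 and numpy 2.4.6 were used, and the scripts were tested on simulated lists.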

Additional observations from a re-analysis of the deposited data

Results flagged for a closer look

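Bone cancer pain list 1 was outside the 5 lists compared, and its RIP-absent peaks stood apart from those of the controls. As deposited, 60.7% of its peaks lay in RIP-absent genes, against at most 17.1% in a control list, and 30433 of its 30619 RIP-absent peaks held its recurrent fold of 10.6. At an FDR of at most 0.05, its 116 RIP-absent peaks made up 12.6% of the list, but their median exonic width was 367 bp, against at most 180 bp in a control list. Of these 116 peaks 43 were wider than 500 bp, against 0 in the controls and 59 RIP-table peaks (7.35%) in the same list.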

How the results depend on the processing

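Adding bone cancer pain list 1 at an FDR of at most 0.05 took the exact permutation p to 0.03125, the smallest that 6 lists allow, for 4 measures. These were the spliced share (-15.6 points), genes found again (-27.7), peaks per gene (-0.117) and shared places (33.4 points). Of these, only genes found again differed more than with the 5 lists (-26.7 points there). The lower p thus reflects the added list. The mean width difference became 0.14 on the log2 scale (SD 0.41), although RIP-absent peaks were narrower in 5 of 6 lists and wider only in list 1. Peak recurrence turned to -8.21 points for peaks with 2 or more blocks. Leaving out single lists gave these ranges for RIP-absent minus RIP-table values: width -0.03 to -0.02, spliced share -18.3 to -15.8, peak recurrence 1.82 to 8.37, genes found again -27.4 to -19.9, log2 fold 0.12 to 0.26, FDR share -12.6 to -8.85, peaks per gene -0.136 to -0.108, shared places 28.0 to 43.4 and most common value 12.1 to 13.6. Without peaks on the mitochondrial chromosome or unplaced scaffolds, or without members overlapping a RIP-table peak, no within-list difference changed sign.

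Of the differences of bone cancer pain minus controls, all but that in log2 number changed sign under some alternative with lists treated alike. Width (log2) was -0.00503 and became 0.0178 at the FDR limit, 0.12 as genomic span and 0.00425 in the replicate block of lists 2 and 3. With list 1, which alone was limited by FDR, the width difference read 0.44. The spliced share of 1.87 became -3.11 at the FDR limit, -2.14 at equal list length and -0.612 for 3 or more blocks. The FDR share of -7.08 became 4.40 at equal list length. With list 1 it read 8.42, and the log2 number of 0.39 read -0.00215; both follow from adding a list limited by FDR to lists without that limit, and show nothing about stability. Lists 2 and 3 of both groups share only a number (correlation of their deviations -0.04 over 757 genes). With the block, no other difference changed sign: the peak share was 3.57 points. Without single lists these ran from -1.34 to 5.17 (peak share), -0.587 to 5.42 (gene share), 0.17 to 0.60 (log2 number), -0.0232 to 0.0132 (width), -1.88 to 5.62 (spliced), -2.12 to 8.32 (recurrence) and -22.2 to 8.02 (FDR share); the sign turned without bone cancer pain 3 for peak share, gene share and recurrence, without bone cancer pain 2 for spliced share, FDR share and width, and without control 1 for width.

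RIP-absent genes in bone cancer pain lists alone numbered 15 as deposited and 2 at the FDR limit. Of these 2, 1 was among the 15, and the other had control peaks that did not pass the limit. With list 1 required the number was 1, and without single lists it was 15 to 224. Those in control lists alone rose from 0 to 18 with 2 of 3 lists, and numbered 0 to 7 without single lists. The cause of these changes was not tested, beyond the smaller number of lists required. Depth is unknown, so a peak absent from a list may be below its detection.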
